A study of Mus musculus with 14 samples.

Results

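Levels of 10 genes of the cross-presenting type 1 conventional dendritic cell (cDC1) were measured by bulk RNA-seq in CT26 tumors. The genes were Xcr1, Xcl1, Clec9a, Batf3, Irf8, Itgae, Flt3, Flt3l, Wdfy4 and Tlr3, matched by symbol to their Ensembl identifiers. All 10 were among the 53801 genes listed for each tumor, and all 10 were among the 16287 genes with enough counts to be tested. CT26 is a colon carcinoma line of BALBc mice, here carrying DNA barcodes and grown in both flanks of mice of that strain. The 14 tumors came from 11 mice and formed 3 groups, namely 5 tumors of 4 mice that received control IgG, 5 tumors of 4 mice that were responders to anti-PD-1 antibody, and 4 tumors of 3 mice that were non-responders to it. All tumors shared the line and the host strain, and differed in the antibody given and, after anti-PD-1, in tumor size relative to the control cohort at the end of treatment, by which the study separated responders from non-responders. Response and tumor size can therefore not be told apart in these groups. Tumors 14L and 14R (control IgG), 30L and 30R (responders) and 33L and 33R (non-responders) were the left and right tumors of the same mouse, as read from their numbers.

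cDC1 are a small population of dendritic cells that take up material from dying cells and present its peptides on MHC class I to CD8 T cells, which is called cross-presentation. Their development depends on the transcription factors IRF8 and BATF3 and on the cytokine FLT3 ligand, which acts through the receptor FLT3. XCR1 is the receptor for the chemokine XCL1, which NK cells and activated CD8 T cells release, and CLEC9A is a receptor for actin filaments exposed by dead cells. WDFY4 is needed for cross-presentation of cell-associated antigen, and TLR3 detects double-stranded RNA in endosomes. Itgae encodes the integrin chain CD103, which pairs with the product of Itgb7 and is carried by cDC1 of tissues and also by some T cells.

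In mouse, Xcr1 and Clec9a are the most cDC1-restricted of these genes, whereas Irf8, Flt3l, Wdfy4 and Tlr3 are also used by other cells. In a bulk tumor, fewer cells of a type and less RNA per cell cannot be told apart. Counts were scaled to counts-per-million (CPM) values with the TMM factors of edgeR, the groups were compared with edgeR's quasi-likelihood test on all 16287 genes, and a gene was called at a Benjamini-Hochberg adjusted p under 0.05. A log2 fold change is positive where the group named first was higher.

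The non-responder 33R stood apart from the other libraries, with the lowest TMM factor (0.918, against 0.966 to 1.07 in the others) and a summed level of 10 regulators of dendritic cell development of 355 CPM, against 461 CPM or more in every other tumor. Without it 6 of the 10 genes were called against non-responders (Xcr1, Clec9a, Batf3, Itgae, Wdfy4 and Tlr3), and 506 of 16521 genes were called higher.

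Over the whole list, 7 of 10 genes were called higher in responders than in non-responders and none lower. Of all genes tested, 5.08% were called higher in that comparison. The median log2 fold change was 0.914 over the 10 genes and 0.00620 over all genes tested. For 6 of the 10, Xcr1, Clec9a, Itgae, Flt3l, Wdfy4 and Tlr3, every responder was above every non-responder, which held for 6.80% of all genes tested. Against control IgG tumors, 9 of 10 genes were called higher in responders and none lower, where 7.88% of all genes tested were called higher. For 8 of the 10, all but Batf3 and Tlr3, every responder was above every control IgG tumor, as for 8.34% of all genes. The median of the 10 was 0.866 in that comparison, with -0.0105 over all genes. The calls of Flt3l in both comparisons, and its place among the 6 genes without overlap, were lost when its fragments were added to those of an overlapping gene (Gm45713), which left 6 and 8 genes called. These comparisons share the 5 responders, so they are not independent of each other.

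The genes lay on 8 chromosomes of the mm10 build (GRCm38). Xcr1 was at chr9:123852315-123862029 and Clec9a at chr6:129408862-129424763. The pair encoding ligand and receptor for dendritic cell growth was at chr7:45129788-45136432 (Flt3l) and chr5:147330741-147400489 (Flt3), and the chemokine Xcl1 at chr1:164931644-164935527. Batf3 was at chr1:191097847-191108945, Irf8 at chr8:120736358-120756694, Tlr3 at chr8:45395665-45411080, Itgae at chr11:73090583-73147446 and Wdfy4 at chr14:32959547-33185508. Because Xcr1 and Clec9a had the largest log2 fold changes of the 10, and Flt3l held the only motif match among the members, the 250 bases before their start sites are shown 5′ to 3′ from RefSeq (GRCm38.p6). The windows are chr9:123862030-123862279 on the minus strand, chr6:129408612-129408861 on the plus strand and chr7:45136433-45136682 on the minus strand, and capitals mark the motif match.
Xcr1: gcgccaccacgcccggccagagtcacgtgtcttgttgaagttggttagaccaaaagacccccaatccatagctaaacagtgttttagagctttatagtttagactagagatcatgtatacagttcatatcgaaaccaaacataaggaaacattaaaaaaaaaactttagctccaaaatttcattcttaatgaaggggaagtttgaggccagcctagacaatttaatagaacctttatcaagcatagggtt
Clec9a: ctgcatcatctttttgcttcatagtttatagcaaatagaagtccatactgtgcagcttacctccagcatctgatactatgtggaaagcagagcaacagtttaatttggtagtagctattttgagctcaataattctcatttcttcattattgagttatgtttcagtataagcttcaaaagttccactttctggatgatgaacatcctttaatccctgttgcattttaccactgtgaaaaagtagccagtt
Flt3l: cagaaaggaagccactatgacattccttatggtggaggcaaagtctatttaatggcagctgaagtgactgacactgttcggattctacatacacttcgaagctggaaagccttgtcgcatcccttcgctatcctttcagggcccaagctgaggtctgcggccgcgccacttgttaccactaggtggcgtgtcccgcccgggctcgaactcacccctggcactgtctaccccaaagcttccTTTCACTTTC
The motifs searched, on both strands, were TGANTCA, bound by AP-1 and BATF factors, the core of the interferon-stimulated response element, spelled GAAA, any 2 bases and GAAA, and 2 composites, in which GAAA stands 4 bases before or 4 bases after TGANTCA. RefSeq windows were found for 9 of the 10 members, with 10 windows in all. TGANTCA and the composites that contain it matched in none of the 10 windows, and the interferon-stimulated response element core matched only in that of Flt3l, on the reverse strand and beginning 10 bases before the start. Of 32851 windows of the same length over all genes, 6.75% held TGANTCA, 2.98% held the interferon-stimulated response element core, and 0.131% and 0.0974% held the composites with GAAA before and after TGANTCA. A match of this kind is a description of letters and not of a bound site.

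Xcr1 had 8.33, 4.52, 6.05, 5.76 and 5.36 CPM in the responders 24L, 26R, 30L, 30R and 35L. In the non-responders 29L, 32R, 33L and 33R it had 1.67, 1.85, 1.73 and 2.06 CPM, and in the control IgG tumors 14L, 14R, 16R, 17R and 20R it had 2.13, 1.75, 0.920, 1.91 and 1.03 CPM. Each responder was above each of the other 9 tumors, and the lowest responder had over 2 times the level of the highest other tumor. Xcr1 averaged 1.55 ± 0.54 CPM in the control IgG group (mean ± SD, n = 5), 1.83 ± 0.17 CPM in the non-responder group (n = 4) and 6.0 ± 1.42 CPM in the responder group (n = 5). Xcr1 was 3.29-fold higher in responders than in non-responders (log2 fold change 1.72, SE 0.25, edgeR adjusted p = 0.00475) and 3.88-fold higher than in control IgG tumors (log2 fold change 1.96, SE 0.24, edgeR adjusted p = 0.000483). These values rest on 35 to 360 fragments per tumor.

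Clec9a had 5.11, 2.89, 3.73, 3.79 and 2.57 CPM in the responders, in the same order of tumors. The non-responders had 1.37, 1.09, 1.5 and 1.05 CPM, and the control IgG tumors 1.19, 1.09, 0.999, 1.28 and 0.777 CPM. Again no responder overlapped with any other tumor. It averaged 1.07 ± 0.19 CPM in the control IgG group (mean ± SD, n = 5), 1.25 ± 0.22 CPM in the non-responder group (n = 4) and 3.62 ± 0.99 CPM in the responder group (n = 5). The differences were 2.89-fold from non-responders (log2 fold change 1.53, SE 0.23, edgeR adjusted p = 0.00475) and 3.39-fold from control IgG tumors (log2 fold change 1.76, SE 0.21, edgeR adjusted p = 0.000483). Clec9a had 33 to 221 fragments per tumor. Its exons share 184 of 3293 bases with those of Clec1b on the same strand, a gene that had at most 5 fragments in any tumor.

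**Figure D1:**
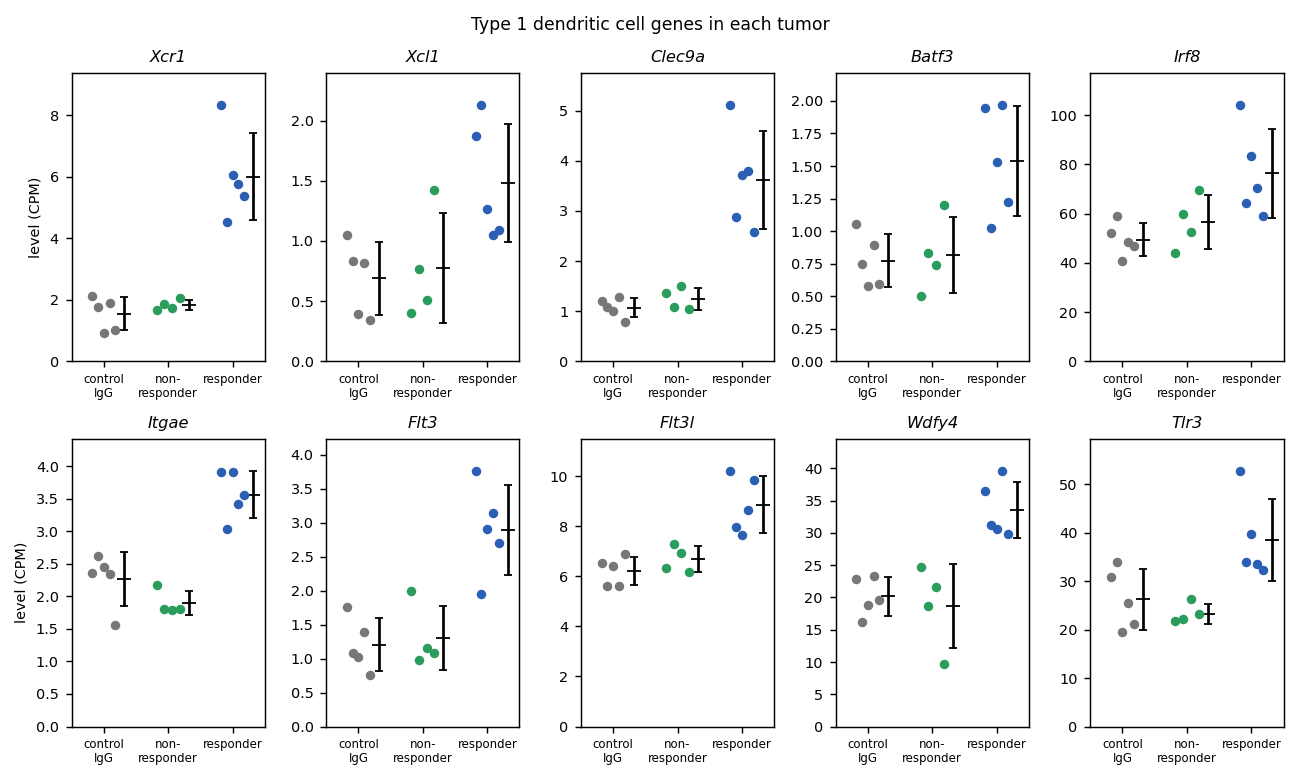
CPM of the 10 genes in each of 14 tumors, with 1 panel per gene and 1 point per tumor; bars are the mean and SD of 5 control IgG, 4 non-responder and 5 responder tumors, and each vertical axis starts at 0. The responders of Xcr1, Clec9a, Itgae, Flt3l and Wdfy4 stand above all other tumors. Those of Batf3, Irf8, Xcl1 and Flt3 overlap with the non-responders, and those of Tlr3 with the control IgG tumors.

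The endosomal receptor Tlr3 had 52.8, 33.9, 39.6, 33.6 and 32.3 CPM in the responders, against 21.7, 22.1, 26.2 and 23.2 CPM in the non-responders. Control IgG tumors reached higher than non-responders, with 30.9, 33.9, 19.5, 25.5 and 21.1 CPM, so that 14R was above 3 of the 5 responders. Tlr3 was 1.65-fold higher in responders than in non-responders (log2 fold change 0.72, SE 0.18, edgeR adjusted p = 0.0233) and 1.47-fold higher than in control IgG tumors (log2 fold change 0.55, SE 0.16, edgeR adjusted p = 0.0380). Gm45542, on the other strand, shares 381 of 5207 exon bases with Tlr3 and had at most 4 fragments.

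Itgae had 3.91, 3.03, 3.91, 3.42 and 3.55 CPM in the responders. It had 2.17, 1.81, 1.78 and 1.81 CPM in the non-responders and 2.36, 2.63, 2.44, 2.34 and 1.55 CPM in the control IgG tumors. The responders stood apart from both other groups. The gene was 1.88-fold higher than in non-responders (log2 fold change 0.91, SE 0.17, edgeR adjusted p = 0.00828) and 1.57-fold higher than in control IgG tumors (log2 fold change 0.65, SE 0.15, edgeR adjusted p = 0.0126). Haspin lies on the other strand within Itgae and had 537 to 840 fragments, but it shares no exon base with it.

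Wdfy4 had 36.6, 31.2, 30.6, 39.7 and 29.9 CPM in the responders. The non-responders had 24.7, 18.7, 21.6 and 9.63 CPM, and the control IgG tumors 22.8, 16.2, 18.8, 23.3 and 19.6 CPM. No responder overlapped with another tumor, and the non-responder 33R was lower than all others. Without 33R Wdfy4 was still called against non-responders (log2 fold change 0.65, edgeR adjusted p = 0.0252). Wdfy4 was 1.80-fold higher than in non-responders (log2 fold change 0.85, SE 0.21, edgeR adjusted p = 0.0241) and 1.67-fold higher than in control IgG tumors (log2 fold change 0.74, SE 0.19, edgeR adjusted p = 0.0223).

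Flt3, the growth factor receptor of dendritic cells and their precursors, had 3.77, 1.95, 2.91, 3.14 and 2.70 CPM in the responders. It had 1.99, 0.973, 1.16 and 1.08 CPM in the non-responders and 1.76, 1.09, 1.03, 1.40 and 0.754 CPM in the control IgG tumors. The non-responder 29L was just above the responder 26R, and otherwise the responders were higher. Flt3 was 2.22-fold higher than in non-responders (log2 fold change 1.15, SE 0.28, edgeR adjusted p = 0.0238) and 2.41-fold higher than in control IgG tumors (log2 fold change 1.27, SE 0.26, edgeR adjusted p = 0.00661).

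The ligand of that receptor, Flt3l, had the smallest log2 fold change of the 10 genes in both comparisons with responders. It had 10.2, 7.96, 7.64, 8.64 and 9.83 CPM in the responders, 6.33, 7.30, 6.94 and 6.18 CPM in the non-responders, and 6.53, 5.62, 6.41, 5.59 and 6.88 CPM in the control IgG tumors. The responders were again above every other tumor, but by a narrow margin from the non-responder 32R. The difference was 1.33-fold from non-responders (log2 fold change 0.41, SE 0.12, edgeR adjusted p = 0.0420) and 1.43-fold from control IgG tumors (log2 fold change 0.51, SE 0.11, edgeR adjusted p = 0.00791). Flt3l shares 856 of 3878 exon bases with the overlapping gene Gm45713 on the same strand, so reads could be divided between them and the level of Flt3l is uncertain. Gm45713 also overlaps Rpl13a on that strand, so fragments given to Gm45713 need not belong to Flt3l. Their origin was not tested, and the sum of both genes is not a corrected level of Flt3l. Gm45713 was lower in responders, at 0.740, 2.33, 2.46, 1.05 and 0.720 CPM, than in most non-responders, at 2.54, 2.90, 1.53 and 5.29 CPM, and was not called (log2 fold change -1.07, edgeR adjusted p = 0.155). Added together, the 2 genes had 10.96, 10.3, 10.1, 9.69 and 10.6 CPM in the responders, 8.87, 10.2, 8.47 and 11.5 CPM in the non-responders, and 8.52, 6.56, 9.67, 8.97 and 8.39 CPM in the control IgG tumors. The sum overlapped between responders and non-responders, with 33R the highest of all tumors, and the responders stayed just above the control IgG tumors. Fitted as 1 gene, an alternative chosen after seeing the data, it was called neither against non-responders (log2 fold change 0.08, SE 0.12, edgeR adjusted p = 0.697) nor against control IgG tumors (log2 fold change 0.29, SE 0.11, edgeR adjusted p = 0.103).

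Xcl1, the ligand of XCR1, varied widely within the groups. The responders had 1.87, 2.13, 1.27, 1.05 and 1.09 CPM and the non-responders 0.399, 0.764, 0.510 and 1.43 CPM, so that 33R lay above 3 of the 5 responders. The control IgG tumors had 1.05, 0.833, 0.394, 0.820 and 0.343 CPM, all below the responders, although 14L and the responder 30R were nearly equal. Xcl1 did not pass the test against non-responders (log2 fold change 0.94, 95% interval 0.06 to 1.82, edgeR adjusted p = 0.154) or against control IgG tumors (log2 fold change 1.10, 95% interval 0.28 to 1.93, edgeR adjusted p = 0.0726). It had 15 to 81 fragments per tumor, the fewest of the 10 genes. Gm20743, on the other strand, shares 98 of its 523 exon bases and had at most 2 fragments.

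Batf3 also had few fragments, 20 to 99 per tumor. It had 1.94, 1.02, 1.53, 1.97 and 1.22 CPM in the responders, 0.498, 0.834, 0.736 and 1.20 CPM in the non-responders, and 1.05, 0.747, 0.578, 0.892 and 0.594 CPM in the control IgG tumors. The responder 26R lay within the range of both other groups. Batf3 was 1.99-fold higher in responders than in control IgG tumors (log2 fold change 0.99, SE 0.27, edgeR adjusted p = 0.0267) and did not pass the test against non-responders (log2 fold change 0.92, 95% interval 0.29 to 1.54, edgeR adjusted p = 0.0597).

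Irf8, which macrophages, B cells and plasmacytoid dendritic cells also use, had 104, 64.5, 83.5, 70.5 and 59.1 CPM in the responders. The non-responders had 44.1, 59.7, 52.7 and 69.6 CPM and overlapped with them, and the control IgG tumors had 52.3, 58.9, 40.6, 48.6 and 46.8 CPM and did not. The control IgG tumor 14R and the responder 35L were nearly equal, at 58.9 and 59.1 CPM. Irf8 was 1.54-fold higher than in control IgG tumors (log2 fold change 0.63, SE 0.16, edgeR adjusted p = 0.0188). Against non-responders it did not pass the test (log2 fold change 0.43, 95% interval 0.07 to 0.79, edgeR adjusted p = 0.110).

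**Figure D2:**
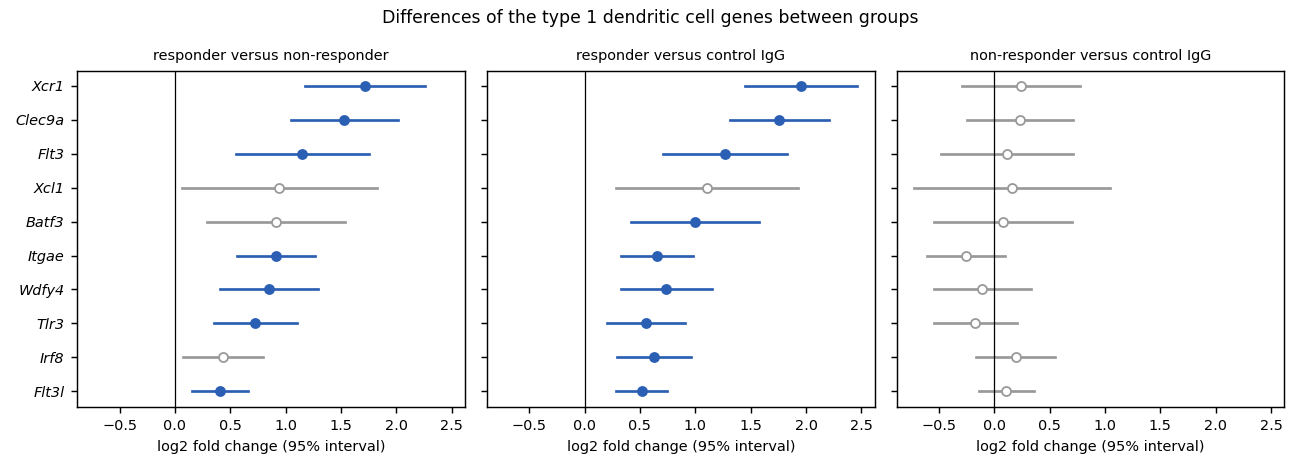
Log2 fold changes of the 10 genes in the 3 comparisons, with 95% intervals from the edgeR fit; filled points were called at an adjusted p under 0.05. Of the 10 genes, 7 are filled in the left panel, 9 in the middle panel and none in the right panel.

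None of the 10 genes was called between non-responders and control IgG tumors. Over all 16287 genes the same test called 0, or 0.00%, and 758 of them (4.65%) had an unadjusted p under 0.05, none of them a member. DESeq2 called 18 genes in that comparison, none of them a member. The log2 fold changes of the members were between -0.26 (Itgae) and 0.24 (Xcr1), with edgeR adjusted p between 0.931 and 0.970, and the groups overlapped for every member. The 95% interval was -0.29 to 0.77 for Xcr1 and -0.25 to 0.71 for Clec9a, so differences within these intervals were not excluded with 4 and 5 tumors. For Flt3l the interval was narrower, from -0.14 to 0.36.

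For Xcr1 and Clec9a, left and right tumors of a mouse differed less than the responder mean did from the other group means. Xcr1 was 1.05 times higher in one flank tumor than in the other in responder mouse 30, 1.19 times in non-responder mouse 33 and 1.22 times in control mouse 14. Clec9a differed 1.02 times in mouse 30, 1.44 times in mouse 33 and 1.10 times in mouse 14. In mouse 33, 33L and 33R had the highest and the lowest Clec9a of all non-responders. Whether tumors of a mouse are closer than tumors of different mice was not tested. The widest gaps were in mouse 33, where Xcl1 differed 2.80 times and Wdfy4 2.24 times, with 33R high for Xcl1 and low for Wdfy4. When the counts of each mouse were summed, leaving 4, 4 and 3 mice, 6 of the 10 genes were called against non-responders and all 10 against control IgG mice. In those fits 766 and 1525 of 16463 genes were called higher.

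The calls that held when each tumor was left out in turn were those of Xcr1, Clec9a and Itgae in both comparisons and of Flt3 and Flt3l against control IgG tumors. Without the responder 24L, the tumor with the highest Xcr1, Clec9a, Irf8, Flt3, Flt3l and Tlr3, 3 genes were called against non-responders and 5 against control IgG tumors. Without the non-responder 32R 3 genes were called, without the responder 30R 4, and without the control IgG tumor 20R 5 of the 10 against control. The calls over all genes fell in the same fits, from 827 called higher against non-responders to 341 of 16160 without 24L, 349 of 16508 without 32R and 416 of 16171 without 30R, and from 1284 against control to 748 of 16160 without 24L and 751 of 16220 without 20R. In the comparison with non-responders, the adjusted p reached at most 0.0688 for Flt3 (lost without 24L, 30R, 32R or 33R), 0.0606 for Wdfy4 (without 24L, 30R or 32R) and 0.0615 for Tlr3 (without 24L or 32R). Flt3l was called in 3 of the 9 fits, with an adjusted p of up to 0.108, and lost its call without 24L, 29L, 30R, 32R, 33R or 35L, whereas Batf3 gained a call without 26R or 33R. In the comparison with control, the adjusted p reached at most 0.0759 for Batf3 and 0.0582 for Wdfy4 (both lost without 16R, 20R, 24L or 30R), 0.0532 for Irf8 (without 20R or 24L) and 0.110 for Tlr3 (without 16R, 17R, 20R, 24L or 30L). Among the processing alternatives other than Ptprc as a covariate, Flt3l lost its call against non-responders with counts summed per mouse, with no filter on low counts or with the compared groups alone, and Wdfy4 with the compared groups alone. Against control, Wdfy4 lost its call on TPM and Tlr3 with an offset for the trend with gene length. Other calls were gained. Of all 11 processing alternatives, Xcl1 was called against control in 8. Against non-responders Batf3 was called in 6, and Xcl1 and Irf8 in 2 each. Over the fits that left out a tumor, the log2 fold change between responders and non-responders stayed between 1.57 and 1.80 for Xcr1 and between 1.37 and 1.64 for Clec9a.

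Levels of different genes were compared per length, as length-scaled transcripts-per-million (TPM) values averaged over the 14 tumors. Irf8 was the highest, at 28.3 ± 9.45 TPM (SD), followed by Tlr3 at 12.2 ± 4.38, Flt3l at 8.96 ± 2.55 and Wdfy4 at 5.35 ± 2.33 TPM. Xcl1 had 4.72 ± 2.73 TPM and Batf3 2.71 ± 1.43 TPM. The lowest were Clec9a at 1.23 ± 0.88, Xcr1 at 0.937 ± 0.738, Itgae at 0.876 ± 0.330 and Flt3 at 0.654 ± 0.387 TPM. This order pools the groups: Xcr1 was above Itgae in responders (1.82 against 1.26 TPM), and Itgae above Xcr1 in non-responders (0.570 against 0.463 TPM) and control IgG tumors (0.734 against 0.430 TPM). Each neighboring pair in this order overlapped in range over the 14 tumors, although within each of the 14 tumors Irf8 was above Tlr3.

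The TPM of Clec9a and Wdfy4 also moved with the isoform length that RSEM assigned to the gene in each tumor. Clec9a, with 4 annotated isoforms, was given a length of 1209 bases in 17R and 3293 bases in 16R and 20R. With these lengths 53 fragments were 1.59 TPM in 17R, whereas 51 fragments were 0.440 TPM in 14R, and the control tumor 17R overlapped with the responders in TPM (1.43 to 2.70 TPM) but not in CPM. Wdfy4 was given 3912 bases in 17R and 10158 bases in 33R, where it had 0.830 TPM. Xcr1 and Xcl1 have 1 isoform each and no such variation. Xcr1 averaged 0.430 ± 0.160 TPM in the control IgG group (mean ± SD, n = 5), 0.463 ± 0.031 TPM in the non-responder group (n = 4) and 1.82 ± 0.46 TPM in the responder group (n = 5).

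On the log2(TPM + 1) scale, tested with limma, all 10 genes were called higher against non-responders and 9 against control, Wdfy4 being the exception. That scale moved the balance of all genes: 1969 of 2160 calls were higher in responders than in non-responders, against 827 of 1612 on counts, and 1522 of 1827 higher than in control IgG tumors, against 1284 of 2147 on counts. The median of all genes was at 0.169 and 0.0854 there, against 0.00620 and -0.0105 on counts.

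**Figure D3:**
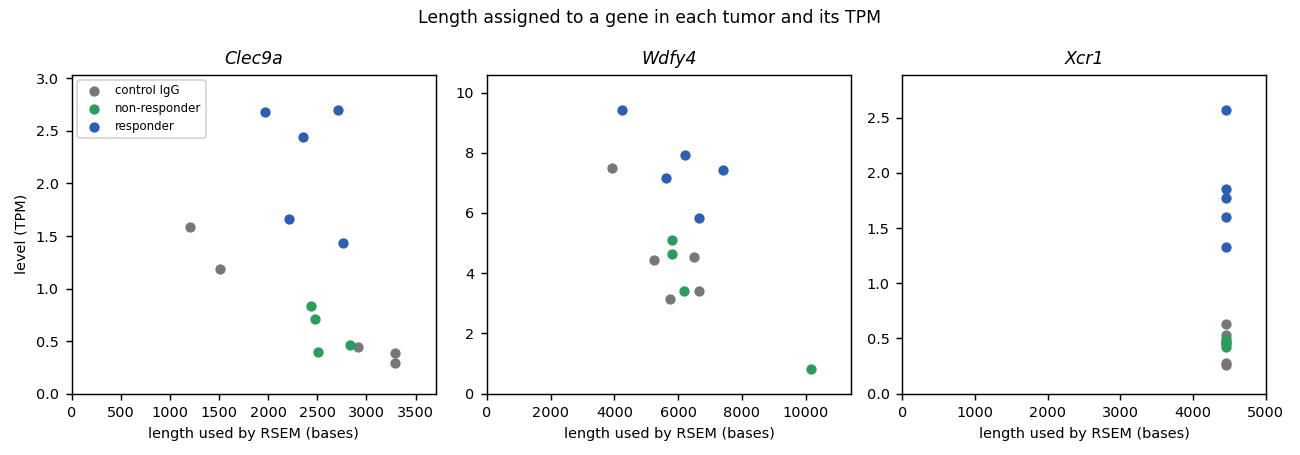
TPM of Clec9a, Wdfy4 and Xcr1 against the gene length in bases that RSEM used in each tumor, 1 point per tumor, colored by group. Clec9a runs from 1209 to 3293 bases and Wdfy4 from 3912 to 10158 bases, while all Xcr1 points share 4453 bases.

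Of 4 leukocyte genes, Ptprc, Laptm5 and Cd52 were called higher in responders in both comparisons. Ptprc, which encodes CD45 of all leukocytes, had 119 to 196 CPM in responders, 78.2 to 95.8 CPM in non-responders and 76.4 to 104 CPM in control IgG tumors, and was 0.78 higher on the log2 scale in responders than in non-responders (SE 0.13, edgeR adjusted p = 0.00674). The levels of the members were also set beside Ptprc in the same tumor, as a description. Xcr1 was 4.24, 3.23, 4.01, 3.77 and 4.52% of the Ptprc CPM in responders, 1.74, 2.15, 1.87 and 2.63% in non-responders, and 1.20 to 2.05% in control IgG tumors. Clec9a was 2.60, 2.06, 2.47, 2.48 and 2.17% in responders, 1.43, 1.26, 1.62 and 1.34% in non-responders, and 0.938 to 1.33% in control IgG tumors. For these 2 genes the responders remained above all other tumors.

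The other 8 members overlapped between groups relative to Ptprc, in both comparisons. Over all genes other than Ptprc, 0.393% had ratios without overlap and higher in responders than in non-responders, and 0.602% higher than in control IgG tumors. The ratio of the group means, responders over non-responders, was 1.88 for Xcr1, 1.67 for Clec9a, 1.31 for Flt3, 1.12 for Itgae, 1.08 for Wdfy4, 1.07 for Xcl1 and 1.06 for Batf3. It was below 1 for Tlr3 (0.954), Flt3l (0.785) and Irf8 (0.767). When log2 Ptprc entered the edgeR fit as a covariate, 0 of the 16287 genes, and so none of the 10, was called in either comparison with responders. At an unadjusted p under 0.05 that fit had 378 genes against non-responders, none of them a member, and 833 against control, with 3 members (Xcr1, Clec9a and Flt3l). Its log2 fold changes were 0.71 for Xcr1 and 0.48 for Clec9a against non-responders (edgeR adjusted p = 1 for both), and those of Tlr3 (-0.15) and Irf8 (-0.17) had the opposite sign. The Ptprc levels of responders did not overlap with those of the other tumors, so group and Ptprc varied together in that fit.

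**Figure D4:**
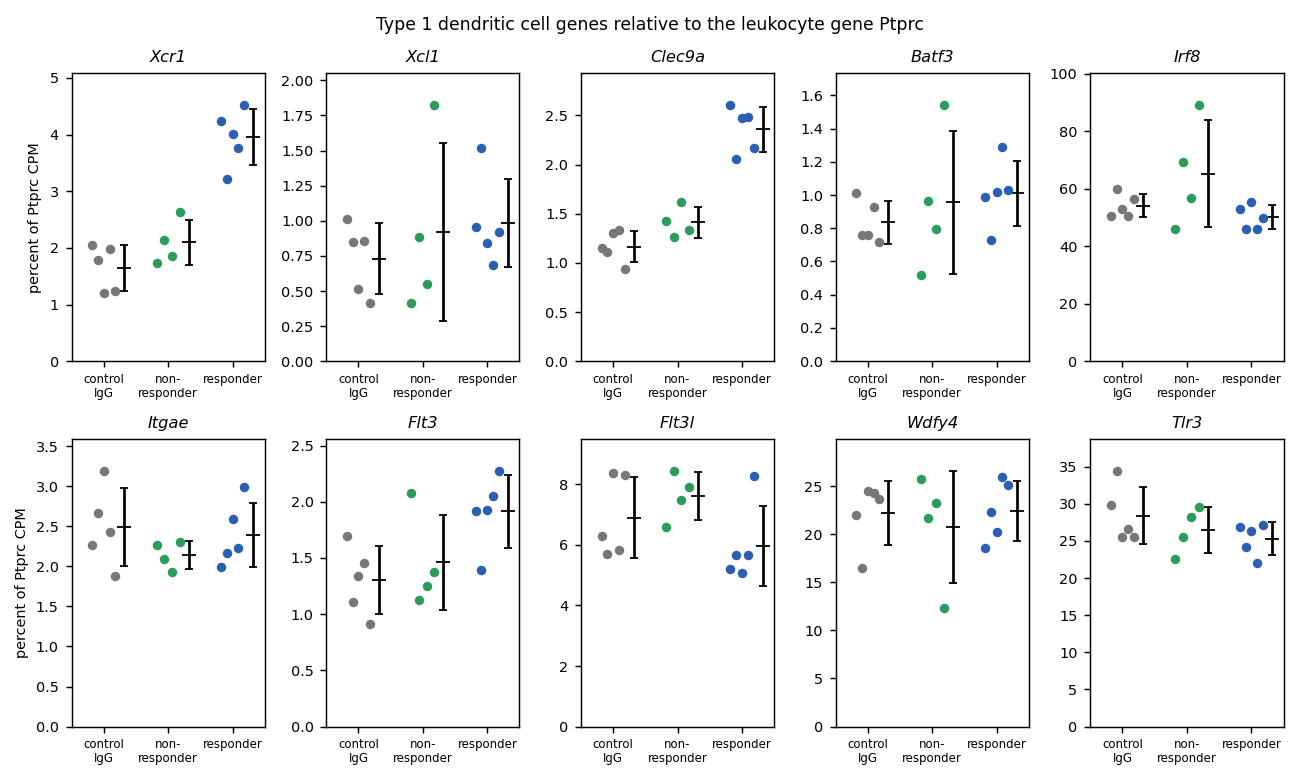
CPM of each of the 10 genes as a percent of the Ptprc CPM of the same tumor, 1 point per tumor, with mean and SD by group and vertical axes from 0. Only in the panels of Xcr1 and Clec9a do all 5 responders lie above the other 9 tumors.

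Of 13 further genes associated with cDC1, 5 were called higher in responders than in non-responders (Naaa, Ifi205, Gcsam, Tlr11 and Tlr12) and none lower. Their median log2 fold change was 0.339. Tlr11 and Tlr12, receptors for a protein of Toxoplasma, differed most, with log2 fold changes of 1.63 (SE 0.29, edgeR adjusted p = 0.00759) and 1.76 (SE 0.36, edgeR adjusted p = 0.0129). Tlr11 had 0.712 ± 0.263 CPM in the control IgG group (mean ± SD, n = 5), 0.765 ± 0.194 CPM in the non-responder group (n = 4) and 2.37 ± 0.58 CPM in the responder group (n = 5). Naaa, a lysosomal amidase, was higher by 0.83, Ifi205 by 0.95 and Gcsam by 0.90 on the log2 scale. Cadm1, an adhesion molecule that other cells also carry, differed by 0.28 on the log2 scale (edgeR adjusted p = 0.186), Ly75, the antigen uptake receptor DEC-205, 0.33 (edgeR adjusted p = 0.302), and Cd207, the Langerhans cell lectin langerin, -0.38 (edgeR adjusted p = 0.661). In the comparison with control 6 of the 13 were called, with Btla, an inhibitory receptor, in addition. Without 24L or without 32R, 3 were called against non-responders, and without 24L 3 against control.

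**Figure D5:**
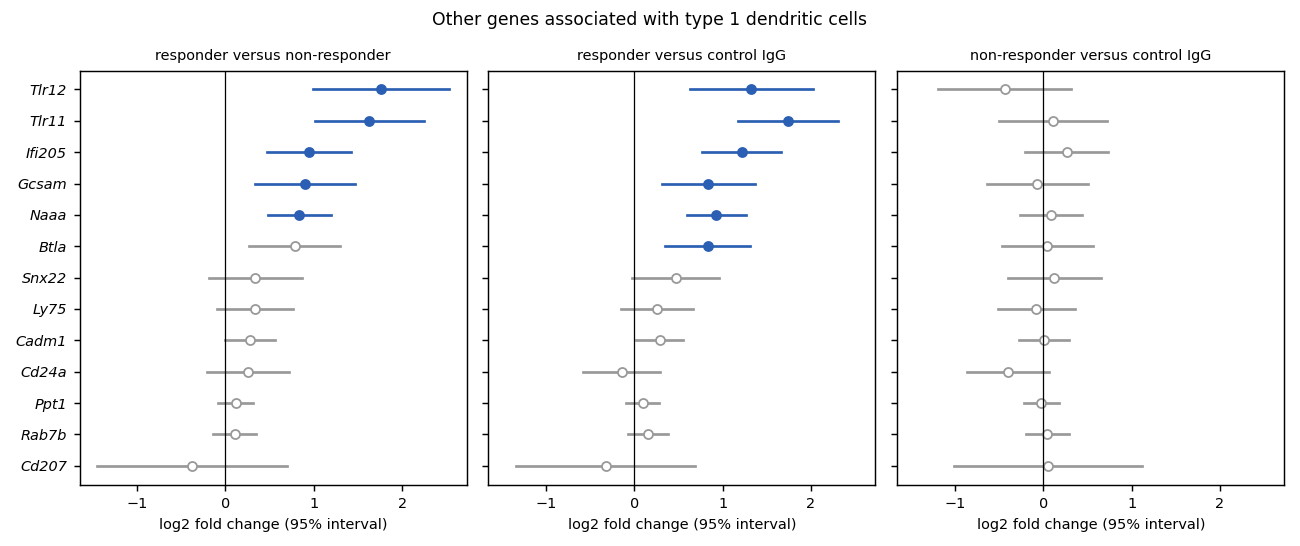
Log2 fold changes of 13 further cDC1-associated genes in the 3 comparisons, with 95% intervals from the edgeR fit; filled points were called at an adjusted p under 0.05. Tlr11 and Tlr12 lie farthest to the right in the left panel, at 1.63 and 1.76, and none of the genes is filled in the right panel.

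Of 6 genes shared by conventional dendritic cells in general, 2 were called higher against non-responders and 1 against control, and none lower. Zbtb46, the transcription factor of that lineage, had 6.98 ± 0.97 CPM in the control IgG group (mean ± SD, n = 5), 6.40 ± 0.95 CPM in the non-responder group (n = 4) and 7.79 ± 0.80 CPM in the responder group (n = 5), and was not called (log2 fold change against non-responders 0.28, edgeR adjusted p = 0.189). Those called were Itgax, the integrin chain CD11c (log2 fold change 0.92, edgeR adjusted p = 0.0369), and Ccr7, the receptor for migration to lymph nodes (1.0, edgeR adjusted p = 0.0158), against non-responders, and Ccr7 alone against control. Fscn1, the actin-bundling protein of mature dendritic cells that tumor cells can also carry, had the opposite sign, with 145 ± 4.7 CPM in the control IgG group (mean ± SD, n = 5), 149 ± 26.6 CPM in the non-responder group (n = 4) and 126 ± 5.1 CPM in the responder group (n = 5). It was not called (log2 fold change -0.24, edgeR adjusted p = 0.124 against non-responders, and -0.21, edgeR adjusted p = 0.163 against control), although every responder was below every control IgG tumor. The 6 genes summed to 155 to 177 CPM in responders, 148 to 207 CPM in non-responders and 171 to 184 CPM in control IgG tumors, with medians of 166, 178 and 176 CPM. Fscn1 made up most of that sum, which was not higher in responders. Zbtb46, Itgax, Dpp4, Kit and Ccr7 each had a higher mean in responders than in both other groups. The count of 2 fell to 1 without 24L, 30L, 30R, 32R or 33R, and the count of 1 was 0 without 16R, 17R, 20R, 24L or 30L, 2 without 26R and 3 without 14L. Of 10 regulators of dendritic cell development besides the members, Irf4, a factor of cDC2 that lymphocytes also use, and Spi1, which encodes PU.1, were called higher in both comparisons. Irf4 was higher by 1.25 on the log2 scale than in non-responders (SE 0.28, edgeR adjusted p = 0.0175) and Spi1 by 0.33 (SE 0.10, edgeR adjusted p = 0.0420). The repressor Id2, needed for cDC1, had 0.22 (edgeR adjusted p = 0.429) and Nfil3 0.18 (edgeR adjusted p = 0.528).

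Of 5 partners of the members, Batf2, a relative of Batf3 that interferon induces, was called higher against non-responders (log2 fold change 1.18, SE 0.29, edgeR adjusted p = 0.0233). Itgb7, the integrin chain that pairs with CD103, was not (0.50, edgeR adjusted p = 0.0673), and neither was Ticam1, the adaptor of TLR3 (0.33, edgeR adjusted p = 0.0750). Itgb7, Batf and Batf2 were called higher against control. Among 6 growth factors and receptors listed for dendritic cells, Csf3r and Csf2rb were called higher against non-responders. Neither is particular to dendritic cells. Against control IgG tumors Csf3r was called higher and Csf1, the growth factor of macrophages, fell by 0.39 on the log2 scale (edgeR adjusted p = 0.0191).

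Of 9 genes of the cross-presentation machinery, Cybb, Tap1 and Tapbp were called higher against non-responders. Cybb, a subunit of the phagosomal NADPH oxidase, differed by 0.80 on the log2 scale (SE 0.14, edgeR adjusted p = 0.00751), and Tap1 and Tapbp, which load peptides onto MHC class I in most cells, by 0.66 and 0.84. Sec22b, a trafficking protein, stood at -0.29 on the log2 scale (edgeR adjusted p = 0.0815) and B2m 0.16 (edgeR adjusted p = 0.334). Against control IgG tumors 5 of 9 were called, with Syk and Tap2. The count of 3 fell to 1 without 24L, 30L, 30R or 33R, and the count of 5 to 2 without 16R, 17R, 20R, 24L, 30L or 30R. Of 8 tested cDC1 products and T cell recruiting chemokines, Cxcl9, which attracts activated T cells, and Ccl5 were called higher against both groups, and without 14R 4 were called against control. Cxcl9 had 63.4 ± 29.4 CPM in the control IgG group (mean ± SD, n = 5), 58.4 ± 12.0 CPM in the non-responder group (n = 4) and 152 ± 33.7 CPM in the responder group (n = 5). Il12b, the shared subunit of IL-12, had a log2 fold change of 1.51 against non-responders (edgeR adjusted p = 0.0533), and Il12a had too few counts to be tested.

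The genes whose log2 CPM followed that of Xcr1 most closely over the 14 tumors, by Pearson's r among 13351 genes with a mean of at least 1 CPM, were Gimap3 (r = 0.979), Cd2 (0.977), Cdc42ep2 (0.975), Tnfrsf4 (0.974) and Ly6c1 (0.973), followed by Gimap8, H2-Eb1, H2-Ab1, Gimap4 and Ccl5. For Clec9a they were Lbh (r = 0.984), Kcnh1 (0.979), Ubash3b (0.977), C4b (0.975) and Nod1 (0.974), followed by Ppm1h, Tlr11, Cybb, Grk5 and Gimap4. Xcr1 and Clec9a had an r of 0.955 with each other, and 0.622 after the group means were removed. Xcr1 and its ligand Xcl1 had 0.804 and 0.654, and Xcr1 and Flt3l 0.794 and -0.05, so that the likeness of the latter pair lay between groups and not within them. All these points share the same 14 libraries and the difference between the groups, and they are a description.

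Markers of other cells moved with the same groups, and their part in the differences of the members was not tested. The list for CD8 T cells held Cd8a and Cd8b1, and also Cd3e, Cd3d, Cd3g and Trac, which other T cells carry too. Of these 6 genes, 5 were called higher in responders than in non-responders and 6 than in control IgG tumors. Their summed level was 34.4 to 70.9 CPM in responders, 19.5 to 25.7 CPM in non-responders and 15.6 to 37.6 CPM in control IgG tumors. For NK cells, the other source of Xcl1, 1 of 5 tested genes was called against non-responders and 5 of 5 against control, with sums of 33.3 to 55.9, 20.8 to 32.3 and 15.2 to 25.2 CPM, and Klra8 had no counts in any tumor. Plasmacytoid dendritic cell genes had 2 of 7 called in each comparison (sums of 429 to 692, 389 to 512 and 360 to 582 CPM), and genes of cDC2 and monocyte-derived dendritic cells 3 of 6 in each (293 to 386, 231 to 257 and 219 to 299 CPM). The plasmacytoid sums were mostly Bst2, with group means of 401, 294 and 267 CPM in the same order. Siglech and Ccr9 had group means of at most 2.26 CPM. The sums for cDC2 and monocyte-derived dendritic cells were mostly Sirpa, Fcgr1 and Ccr2, with responder means of 142, 95.5 and 65.4 CPM. Macrophages or monocytes also carry these genes. For B cells 1 of 4 tested genes was called against non-responders (Pax5) and 2 of 4 against control (Ms4a1 and Pax5), and the 4 tested genes summed to 5.82 to 8.58 CPM in responders, 2.49 to 5.36 CPM in non-responders and 2.49 to 3.10 CPM in control IgG tumors. Macrophage genes, high in all groups, had 1 of 7 called in each comparison (1491 to 1828, 1189 to 1521 and 1300 to 1499 CPM), and of 4 leukocyte genes 3 were called in each (445 to 649, 365 to 377 and 352 to 425 CPM). Langerhans cell and epidermis genes had 0 of 7 called by edgeR, and 0 at an unadjusted p under 0.05, and varied widely within each group (10.9 to 940, 131 to 285 and 7.0 to 677 CPM), and of 7 lymph node genes 2 could be tested and 0 were called by edgeR, also at an unadjusted p under 0.05 (3.57 to 8.40, 3.40 to 10.1 and 2.48 to 7.20 CPM).

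The 14 libraries held 33237744 to 48481461 assigned fragments, and no pair within a group differed as little as sampling noise gives. Of the epithelial genes checked for CT26, Krt20 was at 276 to 381 CPM in group mean, whereas Vil1 was at most 0.174 CPM in any tumor and Cdx2 at most 0.680 CPM, so these intestinal markers were nearly absent. Of those 6 tested genes none was called against non-responders (1 had an unadjusted p under 0.05), and Cdx2 was called lower in responders than in control IgG tumors.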

How the data were processed

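RNA from 14 tumors was enriched for poly(A) transcripts and sequenced in pairs. Per the labels, the authors used mm10, STAR and RSEM; the gene annotation release and the strand setting are not given in the sources used here. The authors deposited RSEM expected counts (estimated counts of fragments, divided among genes where a fragment matches several), TPM and FPKM for each gene; the deposited FPKM values were used for no result. Rounded expected counts went into edgeR 4.0.16 under R 4.3.3 (TMM, filterByExpr, quasi-likelihood, all 14 tumors in 3 groups, no covariate), with a prior count of 2 for log2 CPM. The scripts were tested on simulated data with 200 changed genes. Tumors of the same mouse were kept separate. Alternatives were DESeq2 1.42.0, limma 3.58.1 (voom, voom with a random effect for mouse, and log2(TPM + 1) or log2(TPM + 0.1)), counts summed per mouse, other size factors, no filter, the compared groups alone, a length trend offset (loess, span 0.5), Ptprc as a covariate, and each tumor left out. The sum of Flt3l and the overlapping Gm45713 was added after seeing the data. The genes named are the members, all genes of the fixed lists, and the 10 most like Xcr1 and Clec9a. Members and lists were chosen with earlier results of these data known. Positions are from GENCODE on GRCm38. The counts cover 3 mice with 2 tumors each, so p-values measure the spread between tumors. A result of the B cell list is not reported here.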

Additional observations from a re-analysis of the deposited data

Results flagged for a closer look

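Of 30 sets of values (10 genes in 3 groups), 2 held a tumor that stood apart from the rest of its group by Dixon's criterion, and chance gives about 1 in 20. Both were values of Itgae. The control IgG tumor 20R had 1.55 CPM, below the other 4 control IgG tumors (Dixon ratio 0.778, critical value 0.71 for 5 samples). The non-responder 29L had 2.17 CPM, above the other 3 non-responders (Dixon ratio 0.937, critical value 0.829 for 4 samples). Itgae was called in both comparisons with responders whichever tumor was left out.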

How the results depend on the processing

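The count of members called higher was 7 against non-responders, and it was between 5 and 10 under the other tests, scalings and filters, except 0 with Ptprc as a covariate. Against control IgG tumors it was 9, between 9 and 10 under the same alternatives, and 0 with Ptprc. With the counts of Flt3l and Gm45713 summed, chosen after seeing the data, it was 6 and 8, and the sum was called in neither comparison. Leaving out each tumor gave 3 to 8 and 5 to 9 members. With Ptprc, Tlr3 had the opposite sign, with log2 fold changes of -0.15 against non-responders and -0.24 against control IgG tumors (edgeR adjusted p = 1 for both). Xcr1 and Clec9a were called in 10 of 11 processing alternatives in both comparisons. Over all genes, 827 were higher against non-responders and 1284 against control, with 1273 and 1649 under DESeq2, 487 and 1716 with the compared groups alone, 1483 and 1701 in voom with mouse as a random effect, and 1969 and 1522 on log2(TPM + 1), where the median of all genes moved to 0.169 and 0.0854. Voom without the mouse effect called 832 and 1362 higher. The mouse correlation was estimated at -0.282, from 3 mice with both flanks. A negative value gives tumors of a mouse more weight than independent tumors, so the larger counts do not allow for likeness within a mouse. No paired analysis was possible because the groups share no replicate numbers. Depth limits Xcl1 and Batf3 most, which had at most 81 and 99 fragments in a tumor.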
